A study of Mus musculus with 15 samples.

Results

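The motile cilia genes of the airway are 42 genes whose products build, move or regulate the beating cilium, and all 42 were found by gene name among the 54532 genes of the lung count table. They were selected with the diet contrast of these lungs known, so the lung values and fold changes of the 42 genes below describe what was selected and test nothing. Male C57BL/6J wild-type mice, an inbred laboratory strain, were fed a control diet (CS) or the same diet with added phytosterols (PS), the plant sterols that resemble cholesterol, and the labels give an age of 28 weeks for every mouse. The paper describes mice bought at 6 weeks of age and studied over 28 weeks of feeding, so this figure reads as time on study rather than age. Whole-lung RNA was sequenced from 3 CS mice (CS01, CS02 and CS04, replicates 1 to 3) and 3 PS mice (PS04, PS09 and PS15, replicates 1 to 3), and liver RNA from the same 6 mice and from 3 others (CS09, PS05 and PS11), with 1 library per mouse and tissue. Whole tissue was extracted, so a value is an average over all of its cells. Total counts ran from 17934930 to 19396057 in the lungs and from 14410117 to 17625179 in the livers.

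Motile cilia line the multiciliated cells of the conducting airways and sweep mucus out of the lung. Their shaft, the axoneme, is a ring of microtubule doublets around a central pair. Outer and inner dynein arms on the doublets hydrolyse ATP and slide them, radial spokes carry signals from the central apparatus to the arms, and the nexin-dynein regulatory complex turns sliding into bending. The transcription factors Foxj1 and the Rfx family switch on the genes of this machinery. The axonemal dynein heavy chains and the tektins are also used in sperm tails, and other cells carry a single primary cilium that lacks most of these parts.

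Rfx factors recognise short DNA words, and the start regions of the 42 genes were searched for one of them. The search used the RefSeq promoter windows of build GRCm38.p6, which run from 250 bases before to 50 bases after each gene start. Windows were listed for 34 of the 42 genes and not for Foxj1, Rsph1, Rsph4a, Dnah3, Dnaaf1, Tppp3, Cfap53 and Cfap65. The Rfx core word GTTGCC, read on either strand, stood in 18 of the 39 windows of these genes (46.2%) and in 4111 of all 32851 windows (12.5%). Counted by gene, 17 of 34 members held it (50%), against 14.1% of all 27025 genes with a window. Of the 54 windows of 49 other motile cilia genes 44.4% held it, and of the 35 windows of genes of intraflagellar transport and the BBSome 40%. The paired form in 1 exact spelling, GTTGCC followed within 0 to 3 bases by GGCAAC, was in 0 of 39 member windows and in 0.161% of all windows. Looser spellings of the pair were not searched, and the Dynlrb2 stretch below holds GTTGCC followed directly by tagcaac. The forkhead core TGTTTAC was in 2 member windows, those of Ak7 and Cfap43 (5.13%), and in 3.65% of all windows. The core word can lie inside the paired form, and a match of letters is a description of the window and not a bound site. The stretches upstream of the start are printed for a gene that was far lower in the PS lungs (Lrriq1), a gene of the central apparatus (Spag16), a light chain gene at similar levels in both diets (Dynlrb2), the near-identical dynein genes Dnah7a and Dnah7b, and the regulator Rfx2. Capitals mark each core word, and each stretch reads 5′ to 3′ along the gene's strand.
Lrriq1, chr10:103236323-103236371, minus strand: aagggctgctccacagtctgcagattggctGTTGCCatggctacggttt
Spag16, chr1:69826829-69826902, plus strand: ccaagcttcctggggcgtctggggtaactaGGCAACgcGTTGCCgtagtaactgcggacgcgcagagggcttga
Dynlrb2, chr8:116504934-116504999, plus strand: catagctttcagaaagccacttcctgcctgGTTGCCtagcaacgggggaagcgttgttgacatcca
Dnah7a, chr1:53706949-53707014, minus strand: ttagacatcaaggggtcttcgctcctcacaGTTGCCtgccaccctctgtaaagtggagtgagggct
Dnah7b, chr1:46066660-46066725, plus strand: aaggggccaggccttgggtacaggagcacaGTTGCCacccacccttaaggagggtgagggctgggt
Rfx2, chr17:56831089-56831154, minus strand: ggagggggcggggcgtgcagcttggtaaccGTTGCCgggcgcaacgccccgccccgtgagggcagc

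Spag16 carried 2 core words in opposite orientation 2 bases apart, and both orientations occurred among the members. The core word of Lrriq1 started 19 bases before the gene start, that of Dynlrb2 51 bases and that of Dnah7a 200 bases before it. Members with the core word ranged in their lung log2 fold change from -4.11 to 0.70 with a median of -0.29, and the 17 members with a window that lacks it ranged from -3.03 to 0.46 with a median of -0.57.

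Between the diets, the members differed in direction and in size. Values are CPM (reads of a gene per 1000000 reads counted) after TMM scaling, a correction for library composition, and log2 fold changes compare PS with CS. All 42 members passed the filter on low counts, and their log2 fold changes ran from -4.11 for Lrriq1 to 1.02 for Cfap65, with a median of -0.31 against 0.01 over all 16717 genes tested. In 29 members the fold change was below 0 and in 13 above. It was below -1 in 9 members, between -1 and -0.5 in 8, between -0.5 and 0.5 in 23 and above 0.5 in 2. In 11 members every PS lung was lower than every CS lung (26.2%), against 18.8% of all genes tested, and in 1 member, Tekt2, every PS lung was higher (2.38% against 17.3%). By edgeR's quasi-likelihood test with Benjamini-Hochberg adjustment over all genes, 4 members were called lower at an adjusted p under 0.05 (Lrriq1, Spata18, Dnah12 and Spag16), and 4.43% of all genes were. No member was called higher by that test, although DESeq2 called 1, Tekt2. By edgeR 12 members were lower and 2 higher at an unadjusted p under 0.05. Of all genes 4.8% were called higher, and at an unadjusted p under 0.05 14.5% were lower and 15.6% higher. Because the members were selected on this contrast, nothing is read from these counts. In whole lung, fewer ciliated cells and less RNA per ciliated cell cannot be told apart.

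**Figure D1:**
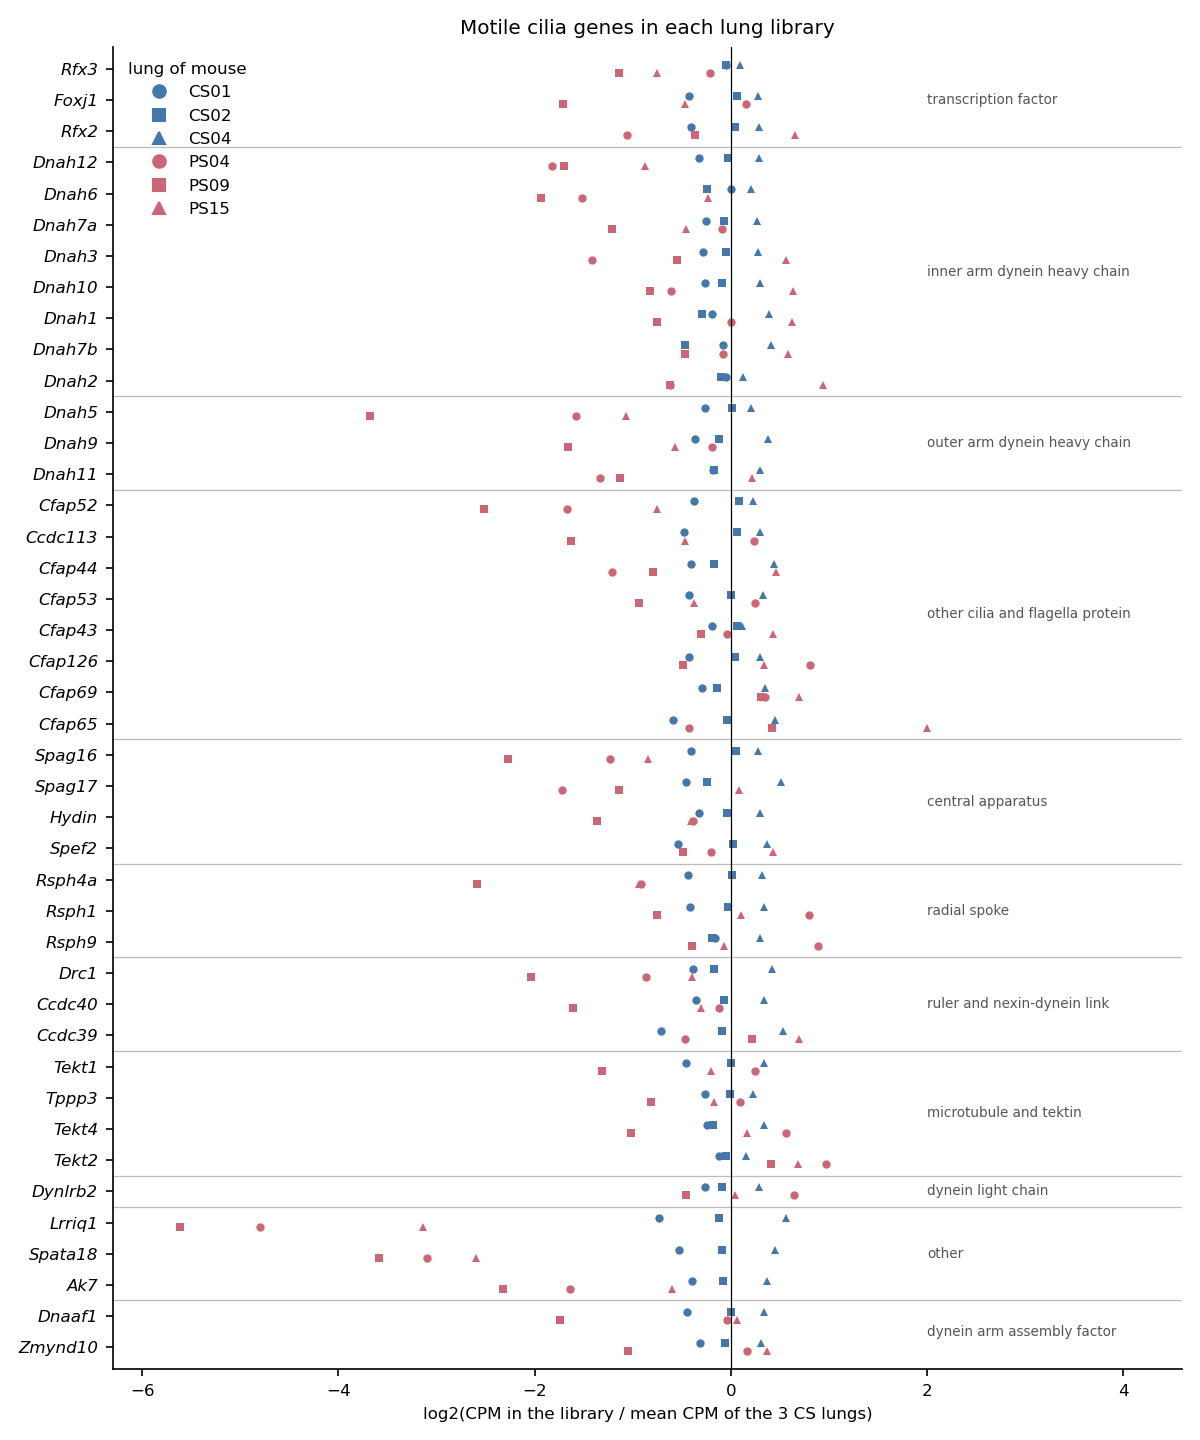
Each row is 1 of the 42 members, grouped by role. Points give log2 of the CPM in 1 lung library over the mean CPM of the 3 CS lungs, blue for CS and red for PS mice. PS09 lies farthest left in most rows, the 3 PS points of Lrriq1 and Spata18 lie far left of 0, and those of Tekt2 lie right of 0.

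How many members were called depended on single libraries. Without CS04 no member was called, nor any of the 17190 genes tested. Without PS09 no member was called either, and of 17058 genes 7 were called lower and 2 higher. Without CS01, as without CS02, where 0.128% and 0.145% of all genes were called lower, Spata18 was the only one left, with an adjusted p of 0.0428 and 0.0369 by edgeR. Without PS04 the called members were Spata18, Lrriq1, Dnah12 and Rfx3, 4 of 42, while 6.95% of all genes were called lower. Without PS15 they numbered 9, namely Spata18, Lrriq1, Dnah12, Dnah6, Ak7, Cfap52, Dnah11, Spag16 and Spag17, while 7.67% of all genes were called lower. DESeq2 called 9 members lower and 8.61% of all genes with an adjusted p lower, and its calls of higher genes were 8.99%. With the replicate number as a block 8 members were called lower and 0 higher, and of all genes 4.82% lower and 4.89% higher. The members' median log2 fold change also moved, to -0.05 without PS09, -0.07 without CS04, -0.52 without CS01 and -0.61 without PS15.

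The 2 members that differed most between the diets are neither dynein nor spoke genes. Lrriq1, a protein with leucine-rich repeats and an IQ motif, at chr10:103046031-103236322, stood at 4.95, 7.56 and 12.2 CPM in CS01, CS02 and CS04 and at 0.296, 0.168 and 0.938 CPM in PS04, PS09 and PS15. Every PS lung was below every CS lung, and the counts behind the PS values were only 5, 3 and 17 reads. Its mean was 8.22 ± 3.65 CPM (SD, n = 3) in CS and 0.467 ± 0.413 CPM (SD, n = 3) in PS, and its fitted log2 fold change was -4.11 (SE 0.59) with an edgeR adjusted p of 0.0172. On the deposited FPKM by limma-trend it was -2.98 on the log2(FPKM + 0.1) scale and -1.06 on the log2(FPKM + 1) scale, scales that understate the change of low genes. Spata18, also called mitochondria-eating protein, at chr5:73651379-73679512, was at 18.9, 25.8 and 37.5 CPM in the CS lungs and at 3.19, 2.29 and 4.53 CPM in the PS lungs, in the same order of mice. The highest PS lung lay far under the lowest CS lung, and the log2 fold change was -3.03 (SE 0.33), with an edgeR adjusted p of 0.01. On the log2(FPKM + 1) scale it was -2.41, larger than that of Lrriq1. Ak7, an adenylate kinase of the cilium, was at 34.8, 43.5 and 59.4 CPM in CS and 14.8, 9.15 and 30.2 CPM in PS. Its groups did not overlap, with PS15 close under CS01, and its log2 fold change was -1.34 (SE 0.40) with an adjusted p of 0.0682.

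The 3 transcription factors of the list were all at lower mean levels in PS, to different degrees. Foxj1, the forkhead factor that drives the motile cilium programme, was at 118, 166 and 193 CPM in CS01, CS02 and CS04 and at 177, 48.7 and 115 CPM in PS04, PS09 and PS15. PS04 lay inside the CS range and only PS09 lay far below it, and the log2 fold change was -0.48 (SE 0.41). Rfx3 read 19.3, 19.2 and 21.3 CPM in CS and 17.2, 9.04 and 11.9 CPM in PS, without overlap, with a log2 fold change of -0.65 (SE 0.24). Rfx2 read 11.6, 15.8 and 18.7 CPM in CS and 7.4, 11.9 and 24.1 CPM in PS, where PS04 was the lowest and PS15 the highest of all 6 lungs, and its log2 fold change was -0.08.

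The outer arm heavy chains, the motors that set beat frequency, all had log2 fold changes below 0. Dnah5, mutated in many families with primary ciliary dyskinesia, was at 66.5, 80.6 and 92.2 CPM in the CS lungs and at 26.7, 6.25 and 38.1 CPM in the PS lungs. All 3 PS lungs were low and PS09 lowest, with a log2 fold change of -1.75 (SE 0.56) and an adjusted p of 0.0866. Its partner Dnah9 was at 29.4, 34.8 and 49.1 CPM in CS and 33.1, 11.9 and 25.4 CPM in PS, so that PS04 lay within the CS range. Dnah11 was at 16.2, 16.2 and 22.5 CPM and 7.28, 8.37 and 21.2 CPM, with PS15 inside the CS range and the other two PS lungs below it. The log2 fold changes of Dnah9 and Dnah11 were -0.68 and -0.57.

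Among the 8 inner arm heavy chains, which shape the bend, only Dnah12 kept the diets apart. Dnah12 was at 25.2, 30.9 and 38.5 CPM in CS and 8.94, 9.71 and 17.2 CPM in PS, with a log2 fold change of -1.40 (SE 0.28) and an adjusted p of 0.0283 by edgeR. On the log2(FPKM + 1) scale that of Dnah12 was -0.87 by limma-trend. Dnah6 was at 82.3, 69.7 and 94.8 CPM in CS and 28.8, 21.5 and 70.2 CPM in PS, and its PS15 value fell within the CS range. Its log2 fold change was -1.03. For Dnah1, Dnah2, Dnah3 and Dnah10 the PS lungs straddled the CS lungs, with PS15 the highest of all 6. Dnah2 shows this pattern, at 16.3, 15.7 and 18.4 CPM in CS and 10.9, 10.9 and 32.1 CPM in PS. The log2 fold changes of these 4 genes were 0.07 for Dnah1, 0.10 for Dnah2, -0.24 for Dnah3 and -0.11 for Dnah10. Dnah7a and Dnah7b, whose transcripts match at 96.9% over 12230 bases and match Dnah7c at 96.9% and 97.3%, had log2 fold changes of -0.51 and 0.08. Reads may be split among these copies, so both values are uncertain. The single light chain of the list, Dynlrb2, was at 39.8, 44.9 and 58.4 CPM in CS and 74.5, 34.7 and 49.1 CPM in PS, with PS04 the highest of the 6 lungs and a log2 fold change of 0.15. The assembly factors Zmynd10 and Dnaaf1, which preassemble dynein arms in the cytoplasm, had overlapping diets and log2 fold changes of -0.05 and -0.37.

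Of the 4 genes of the central apparatus, Spag16 and Hydin had every PS lung below every CS lung. Spag16 was at 25, 34.3 and 40.1 CPM in the CS lungs and 14.1, 6.87 and 18.5 CPM in the PS lungs, with a log2 fold change of -1.33 (SE 0.33) and an edgeR adjusted p of 0.0438. Of 9 other fits of all 6 lungs 5 called Spag16. Those without a filter, with limma-trend or with the GC trend removed did not. Hydin was at 25.8, 31.5 and 39.6 CPM and 24.7, 12.6 and 24.4 CPM, a smaller gap, with PS04 just under CS01 and a log2 fold change of -0.65 (SE 0.27). Spag17 overlapped through PS15 and had a log2 fold change of -0.72, and Spef2 had -0.03.

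The 3 radial spoke genes, whose products sit together in the spoke head, parted in direction. Rsph4a was at 32.2, 43.8 and 54.3 CPM in CS and 23.1, 7.26 and 22.8 CPM in PS, with every PS lung lower and a log2 fold change of -1.29 (SE 0.40). Rsph1 was at 38.6, 50.5 and 65.2 CPM and 89.3, 30.5 and 55.1 CPM, where PS04 was the highest and PS09 the lowest of all lungs. Rsph9 was at 21.9, 21.5 and 30.1 CPM and 45.3, 18.6 and 23.3 CPM, with PS04 again the highest. Their log2 fold changes were 0.18 for Rsph1 and 0.25 for Rsph9, so that the spoke head genes spanned 1.54 log2 units.

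Drc1, a subunit of the nexin-dynein regulatory complex, was at 22.3, 25.9 and 38.9 CPM in CS and 15.9, 7.09 and 22.1 CPM in PS. Its diets missed overlapping by a narrow gap between PS15 and CS01, and its log2 fold change was -0.95 (SE 0.38). Ccdc39 and Ccdc40, which together form the ruler that spaces arms and spokes along the doublet, had log2 fold changes of 0.23 and -0.54. The exons of Ccdc39 overlap those of Ttc14 on the opposite strand over 1256 of 7443 bases, and the library kit does not mark strand, so reads of the pair cannot be told apart there. The same holds for Dnah3 with Lyrm1 over 1506 bases, Spag17 with Wdr3 over 820 bases, Dnah11 with Cdca7l over 642 bases and Dnaaf1 with Taf1c over 584 bases.

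The tektins, filaments inside the doublet wall, included the only member that was higher in every PS lung. Tekt2 was at 10.3, 10.8 and 12.5 CPM in CS and 21.9, 14.9 and 18 CPM in PS, with a log2 fold change of 0.70 (SE 0.20) and an adjusted p of 0.0578. Tekt1 and Tekt4 overlapped between diets and had log2 fold changes of -0.29 and 0.04. Tppp3, a tubulin-binding protein and the most abundant member, was at 444, 528 and 622 CPM in CS and 566, 302 and 474 CPM in PS, with a log2 fold change of -0.25.

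The remaining 8 members are proteins of cilia and flagella of mixed function. Cfap52, a protein of the doublet lumen, was at 15, 20.6 and 22.6 CPM in CS and 6.09, 3.4 and 11.5 CPM in PS, with no overlap, a log2 fold change of -1.47 (SE 0.39) and an adjusted p of 0.0506. Of 9 other fits of all 6 lungs 6 called Cfap52 lower. Cfap65 was at 16, 23.5 and 33 CPM and 17.9, 32.4 and 97 CPM, and its log2 fold change of 1.02 (SE 0.62) rested on PS15, since PS04 lay inside the CS range and PS09 just under CS04. Without PS15 the log2 fold change of Cfap65 was 0.06. Cfap69 was at 25.7, 28.5 and 39.9 CPM and 39.9, 38.9 and 50.8 CPM, and only CS04 kept its diets overlapping. The log2 fold changes of the other five were 0.06 for Cfap43, -0.33 for Cfap44, -0.27 for Cfap53, 0.32 for Cfap126 and -0.43 for Ccdc113.

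**Figure D2:**
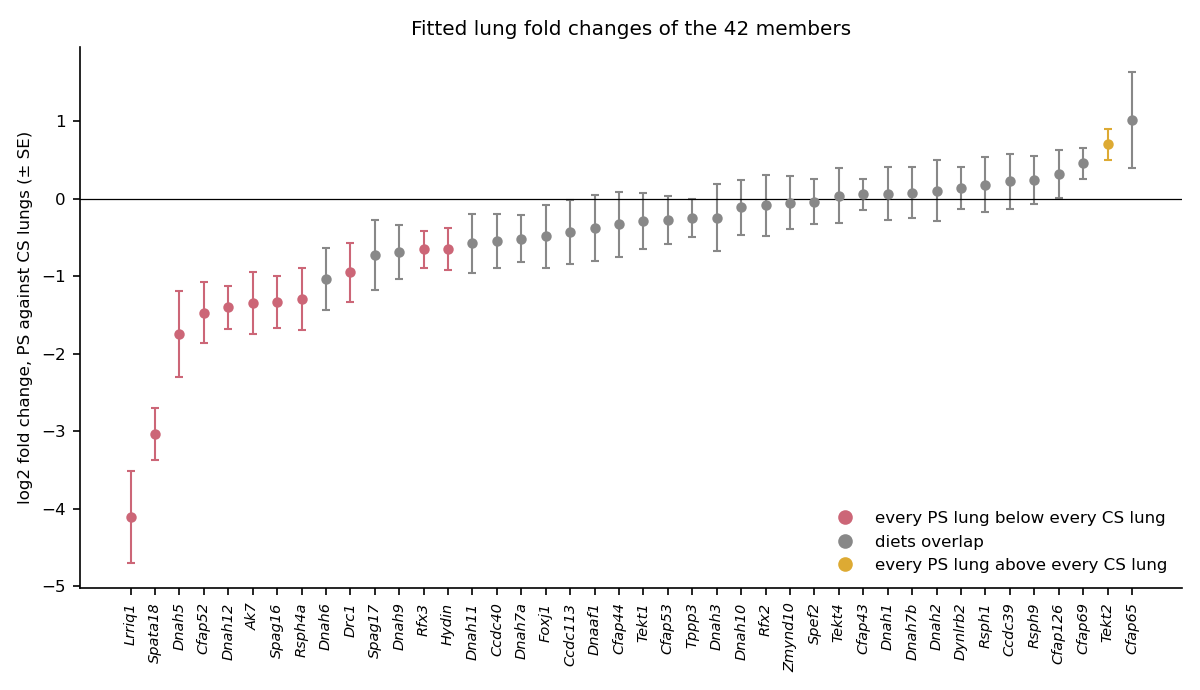
Fitted log2 fold changes (PS against CS lungs, y axis, edgeR) of the 42 members in rising order, with bars of 1 SE. Red points are the 11 members with every PS lung below every CS lung, yellow is Tekt2, and 30 grey members overlap. Lrriq1 at -4.11 and Spata18 at -3.03 stand apart from the rest, which run from -1.75 to 1.02.

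Ratios of members within 1 library do not depend on how the library was scaled, and they differed between diets. The pairs were chosen after the values were seen and are a description. For each read of Rsph1, CS01, CS02 and CS04 held 1.72, 1.60 and 1.41 reads of Dnah5, and PS04, PS09 and PS15 held 0.30, 0.205 and 0.692. Per read of Tekt4 there were 1.16, 1.52 and 1.53 reads of Spata18 in the CS lungs and 0.113, 0.241 and 0.210 in the PS lungs. Between motors of the outer arm the ratio differed too, with 2.26, 2.32 and 1.88 reads of Dnah5 per read of Dnah9 in CS and 0.809, 0.523 and 1.5 in PS. Dnah12 against Dnah10 gave 0.859, 0.935 and 0.892 in CS and 0.386, 0.487 and 0.315 in PS. In all 4 ratios every PS lung was below every CS lung.

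The 3 PS lungs did not resemble each other. Over all genes with at least 100 reads in a pair of libraries, the squared difference was 26.5 to 35.1 times counting noise between CS lungs and 70.2 to 95.9 times between PS lungs. PS09 was the lowest of the 6 lungs for 30 of the 42 members, PS04 for 6, CS01 for 5 and CS02 for 1. CS04 was the highest lung for 23 members, PS15 for 13 and PS04 for 6. Within CS the order was steadier, since CS04 was the highest CS lung for 42 of 42 members and CS01 the lowest for 36. Members summed to 1521, 1835 and 2283 CPM in CS01, CS02 and CS04 and to 1717, 936 and 1812 CPM in PS04, PS09 and PS15, so the sums of the diets overlapped and PS09 was apart. Without Tppp3 the sums were 1078, 1307 and 1660 CPM and 1150, 634 and 1339 CPM.

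The log2 ratio of PS04 to PS15 varied with the length of the gene and with its GC content. Of the 24 members over 5000 bases long 19 were lower in PS04 than in PS15, with a median log2 ratio of -0.80, and of the 18 shorter members 6 were lower and 12 higher, with a median of 0.34. At the ends of the range, Cfap65 had a log2 ratio of -2.43 and Rsph9 of 0.96. Spearman's rho between gene length and this log2 ratio was -0.57 across the 42 members, and -0.19 across 16702 of the genes tested. With GC content rho was 0.25 across the members and -0.20 across those 16702 genes. Across 63 other motile cilia genes it was -0.32 with length and -0.34 with GC content. Against the CS mean, rho with length was -0.49 in PS04, -0.01 in PS09 and 0.15 in PS15. Genes in a library share its depth and its RNA, so these are descriptions. The fitted log2 fold change over all 3 PS lungs had a rho of -0.19 with length and 0.28 with GC content across the members, and -0.13 and 0.20 across the genes tested. With the trend of each library with length removed, 5 members were called lower and Tekt2 higher, and of all genes 4.73% lower and 6.53% higher. With the trend with GC content removed, 3 were called lower, namely Spata18, Lrriq1 and Dnah12, and 3.53% of all genes. RNA quality was not measured in these files, and its part in the length pattern was not tested.

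**Figure D3:**
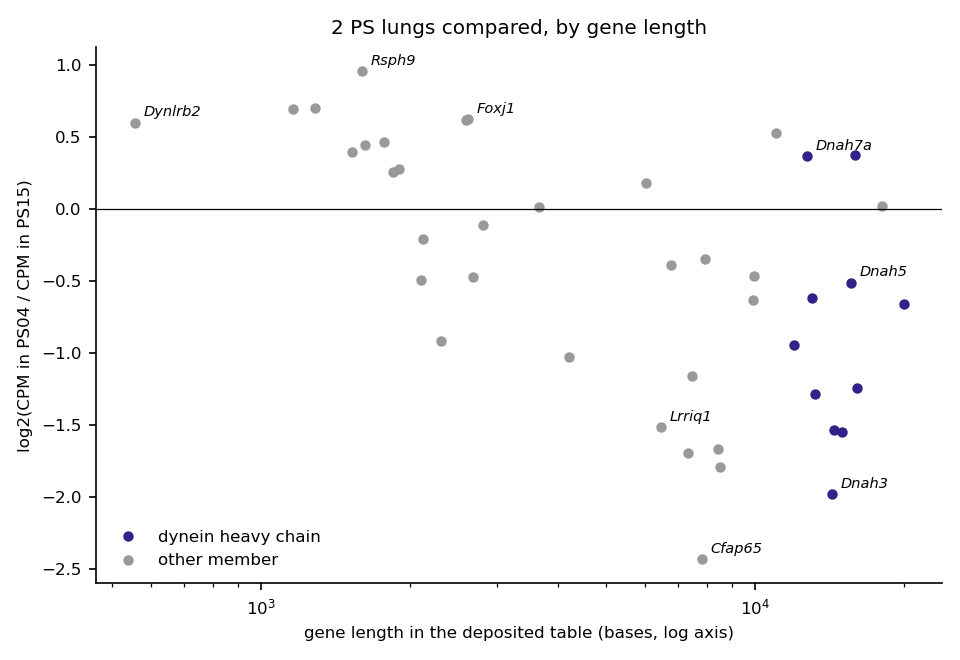
Each point is 1 of the 42 members, with gene length on a log axis against log2 of its CPM in the lung of PS04 over that in PS15. Points below 0 are lower in PS04; dynein heavy chains are dark, and most members over 5000 bases lie below 0 whereas most shorter ones lie above.

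Per gene length, Tppp3 was the most expressed member and the 5 least expressed were dynein heavy chains. In the deposited FPKM (fragment counts per gene length and library size, already scaled by the authors) Tppp3 had 288 ± 46.9 (SD, n = 3) in the CS lungs, followed by Dynlrb2 with 85.9 ± 16.9 and Foxj1 with 60.6 ± 14.1. Rsph1 came next with 44.2 ± 11.2, the median member had 5.01, and Dnah7b closed the order with 0.436 ± 0.132. Of the 41 neighbouring pairs in that order 38 overlapped within 1 SD of each mean, and the gaps after Tppp3, after Rsph1 and between Dnah7a and Dnah7b did not. Spata18 held rank 9 in CS with 13 ± 4.37 FPKM and had 1.59 ± 0.514 FPKM in PS.

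Other genes of the same machinery, from lists kept apart from the members, were measured in the same lungs. Of 67 other motile cilia genes 63 were tested, their log2 fold changes had a median of -0.29, and 45 were below 0. By edgeR 1 was called lower (1.59%) and 0 higher at an adjusted p under 0.05, with 14 lower and 2 higher at an unadjusted p under 0.05, and DESeq2 called 11 lower and 0 higher. Of all genes 14.5% were lower and 15.6% higher at that unadjusted p, and DESeq2 called 8.61% lower. The median of this list was -0.62 without PS04, -0.51 without CS01, -0.47 without PS15, -0.13 without CS04 and -0.09 without PS09. The called gene was Dnal1, a light chain of the outer arm, at 37.9, 43 and 37.9 CPM in CS and 17.8, 15.2 and 28.5 CPM in PS, with a log2 fold change of -0.95 (SE 0.23) and an adjusted p of 0.0413. It stayed under the threshold only without PS15 when libraries were left out singly. In 14 of the 63 genes every PS lung was lower (22.2%, against 18.8% of all genes) and in 1 every PS lung higher (1.59%, against 17.3%). Of 13 regulators of multiciliated cell formation 12 were tested, their log2 fold changes had a median of -0.16, and edgeR called 0, with 1 lower and 1 higher at an unadjusted p under 0.05. Gmnc, the first switch of that programme, was at 8.44, 5.5 and 6.95 CPM in CS and 4.08, 0.949 and 1.38 CPM in PS, without overlap, with a log2 fold change of -1.71 (SE 0.50) and an adjusted p of 0.0615. It was called lower by DESeq2, by edgeR without a filter or with the replicate number as a block, and without PS04, where Tfdp1, a cell cycle factor, was also called higher. The median of the regulators turned to 0.02 without PS09 and was -0.05 without CS04 and -0.27 without PS15.

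Intraflagellar transport, the train system that builds every cilium, and the BBSome, its cargo adaptor, serve primary cilia as well. All 39 genes of these complexes were tested, their log2 fold changes had a median of -0.36, and edgeR called 4 lower (10.3%) and 1 higher (2.56%), against 4.43% and 4.8% of all genes. Without PS09 the median was -0.17. Kif3b, a motor subunit of kinesin-2, fell most, from 53.1, 46 and 55.4 CPM in the CS lungs to 15, 12.1 and 26.8 CPM in the PS lungs, with a log2 fold change of -1.52 (SE 0.28) and an adjusted p of 0.024. Dync2h1, the heavy chain of the return motor, was at 26.3, 28.6 and 33.1 CPM and 16, 11.3 and 15.1 CPM, with a log2 fold change of -1.05 (SE 0.19) and an adjusted p of 0.0219. The transport subunits Wdr19 and Ttc30b had log2 fold changes of -0.82 (SE 0.20) and -0.82 (SE 0.22) with adjusted p of 0.0421 and 0.0498. Cluap1 rose, from 16.6, 18.1 and 18.4 CPM to 25.7, 30.9 and 26.1 CPM, with a log2 fold change of 0.64 (SE 0.15) and an adjusted p of 0.0398. None of these 5 was called without CS01, without CS02, without CS04 or without PS09, where their adjusted p ran from 0.0766 to 0.165, and all 5 were called without PS04. Without PS15 Kif3b, Dync2h1 and Cluap1 were called, and Ttc30b and Wdr19 had adjusted p of 0.0512 and 0.0582 by edgeR. In 14 of the 39 genes every PS lung was lower (35.9%), against 18.8% of all genes, and in 2 every PS lung was higher (5.13%), against 17.3%.

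Markers of the cells that carry the cilia moved unevenly. Of 8 markers of ciliated airway cells 6 had log2 fold changes below 0 and 2 above, with a median of -0.51, and edgeR called 1 lower (12.5%, against 4.43% of all genes), Sec14l3, at 1312, 1500 and 1638 CPM in CS and 432, 302 and 667 CPM in PS, with a log2 fold change of -1.67 (SE 0.28) and an adjusted p of 0.0208 by edgeR, called also without PS04 and without PS15 but not without any of the other 4 lungs. Its log2 fold change lay between those of Dnah5 and Cfap52. The other 7 overlapped between diets, with log2 fold changes of -0.72 for Mlf1, -0.72 for Cdhr3, -0.67 for Fam183b, -0.36 for Tmem212, -0.29 for Ccdc153, 0.08 for 1110017D15Rik and 0.29 for Cdhr4. Without PS04, where 6.95% of all genes were called lower, edgeR called Mlf1 too and the median was -0.77, and it was -0.15 without PS09 and -0.29 without CS04. The median of the list in each library, as log2 over the CS mean, was 0.10 in PS04, -1.67 in PS09 and -0.26 in PS15, against -0.21, -1.08 and -0.02 for the members.

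Other cell types shared this unevenness between libraries. Scgb1a1, the main secretory protein of club cells, was at 41163, 41916 and 64296 CPM in CS and 63918, 34995 and 46278 CPM in PS. Muc5b, the airway mucin, was at 59.3, 92.5 and 47.6 CPM in CS and 44.2, 0.223 and 6.18 CPM in PS, so that PS09 and PS15 held little of it, and Bpifb1 was at 40.3, 133 and 30.7 and 138, 0.391 and 2.26 CPM. The 8 club and goblet markers summed to 47994 to 73194 CPM in CS and 37889 to 72496 CPM in PS, with 0 called by edgeR and 0 at an unadjusted p under 0.05. All 8 had log2 fold changes below 0, with a median of -0.46. That count of 0 rested on PS04, since without it edgeR called 5 of the 8 lower against 6.95% of all genes (Muc5b, Bpifa1, Bpifb1, Scgb3a1 and Scgb3a2) and the median was -2.89, against -0.25 without CS02 and -0.01 without PS09. With all 6 lungs it was -1.94 with the replicate number as a block, and by limma-trend -1.20 with 1 added to the FPKM and -1.62 with 0.1 added, with 0 called in each. Heart muscle markers, expressed in mice also by the muscle sleeves of the pulmonary veins, summed to 157 to 228 CPM in CS, 411 in PS04, 32.4 in PS09 and 69.3 in PS15. Adipocyte markers summed to 11.7 to 109 CPM in CS and 96.6 in PS04, with Adipoq and Cfd at 0 counts in PS09 and PS15. Hepatocyte markers were at 90.01 CPM in CS01 and 0.360 to 14.6 CPM in the other lungs. Of 5 cartilage markers only Chad passed the filter, at 17.5, 27.9 and 26.5 CPM in CS and 30, 5.08 and 16.4 CPM in PS, lowest in PS09, with a log2 fold change of -0.48 (SE 0.54) and, without PS04, of -1.16 at an unadjusted p under 0.05 by edgeR. The defining cartilage genes were near 0, with Acan at 0 in all 6 lungs and Col2a1 at 0.112 CPM or less. In PS09 and PS15 Muc5b, Bpifb1 and the heart muscle and adipocyte sums were thus lower than in the other 4 lungs. PS09 was the lowest lung for 30 members and PS15 the highest for 13, and the part of these markers in the members' values was not tested. Alveolar type I markers, from the gas exchange surface, summed to 3123 to 3855 CPM in CS and 3693 to 4297 CPM in PS, with 0 called by edgeR and 1 higher at an unadjusted p under 0.05. The 7 alveolar type II markers did not move one way. They summed to 20052 to 21171 CPM in CS and to 34418, 34074 and 21983 CPM in PS04, PS09 and PS15, and 5 had log2 fold changes below 0 and 2 above. Most of that sum was Sftpc, a surfactant protein, which was higher in every PS lung with a log2 fold change of 0.82 (SE 0.26) and an edgeR adjusted p of 0.0764. Every PS lung was lower for Abca3, a lipid transporter, with -1.0 (SE 0.28) and 0.0549, for Slc34a2, a phosphate transporter, with -0.57 (SE 0.18) and 0.0756, and for Etv5, a transcription factor, with -0.58 (SE 0.13) and 0.0369, the only call of the list by edgeR with its usual settings. Abca3 was called lower by edgeR without a filter, with the replicate number as a block and with the length or GC trend removed. Without PS15, where 7.67% of all genes were called lower, edgeR called Abca3 lower and Sftpc higher. DESeq2 called Abca3, Slc34a2 and Etv5 lower and Sftpc higher. Of 4 endothelial markers 2 had log2 fold changes below 0 and 2 above, and edgeR called Kdr, a VEGF receptor, lower with -0.95 (SE 0.23) and an adjusted p of 0.0412. The calls of Etv5 and Kdr held with PS04 or PS15 left out and with no other lung left out. Of the smooth muscle, basal, mesothelial, adipocyte, cartilage and hepatocyte markers tested edgeR called 0, with 0 at an unadjusted p under 0.05. It called 0 also of the heart muscle markers, with 1 lower at an unadjusted p, and of the B cell and plasma cell markers, with 1 lower and 1 higher. Without PS04, with 6.95% of all genes called lower, edgeR called lower 3 of 3 adipocyte markers, of which Adipoq and Cfd had 0 counts in both remaining PS lungs, 3 of 4 heart muscle markers (Actc1, Myl7 and Tnnt2) and 1 of 3 B cell and plasma cell markers (Ms4a1). DESeq2 called Actc1 and Ms4a1 lower and Jchain, of plasma cells, higher, and edgeR with the replicate number as a block called Ms4a1 lower.

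**Figure D4:**
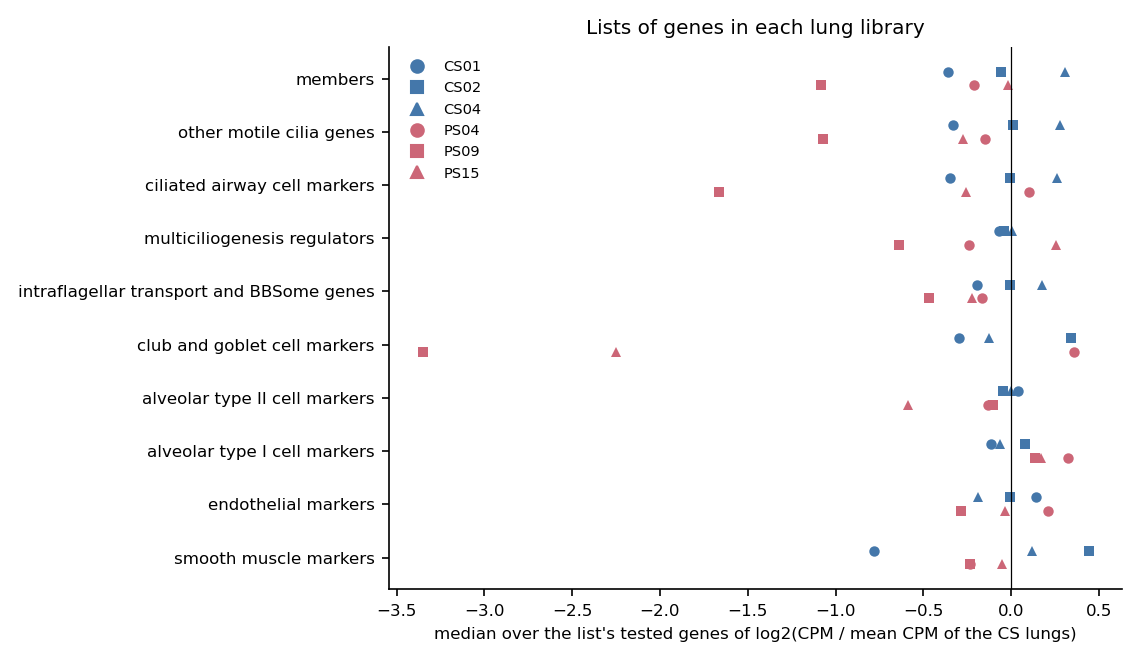
For each list of genes (rows), points give the median over its tested genes of log2 of CPM over the mean CPM of the CS lungs (x axis), 1 point per lung, blue for CS and red for PS mice. PS09 is lowest for all lists except the alveolar type II, alveolar type I and smooth muscle markers. PS09 and PS15 lie far left for club and goblet cell markers.

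The liver, an organ without motile cilia on its main cells, gave values that the selection did not use. Of the members, 36 did not pass the filter on low counts in the livers alone and entered a fit of both tissues through the lung, where they are high. Their difference was thereby largely fixed, and the values are a description. In the 6 mice with both tissues edgeR with mouse as a block called all 42 members higher in lung, and 41.6% of all 18240 genes, and nothing is read from that count. With at least 10 counts required in every library 2 members remained, and both were called higher in lung. The median log2 fold change was 6.85, against 0.36 over all genes. Members summed to 936 to 2283 CPM in the lungs and to 7.34 to 27.4 CPM in the 9 livers. Of the members, 6 had 0 counts in all 6 livers, and 3 counts over the group were taken as their floor. Lung CPM over that floor was 1164 for Cfap65, 840 for Hydin, 806 for Ccdc113, 620 for Tekt4, 297 for Dnah7a and 138 for Lrriq1. CPM here was scaled within each tissue, so these ratios are not limits on the scale of the fitted log2 fold changes. For Foxj1, 136 CPM in lung and 0.231 CPM in liver stood beside a fitted 228-fold difference. A further 9 members had 1 to 3 counts over the 6 livers. The other 27 had log2 fold changes from 2.33 to 8.90, with Tppp3 the highest. The smallest gaps belonged to Rfx3 (2.33), Ccdc39 (2.46), Cfap126 (2.67) and Rfx2 (2.80), of which the Rfx factors also serve primary cilia.

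**Figure D5:**
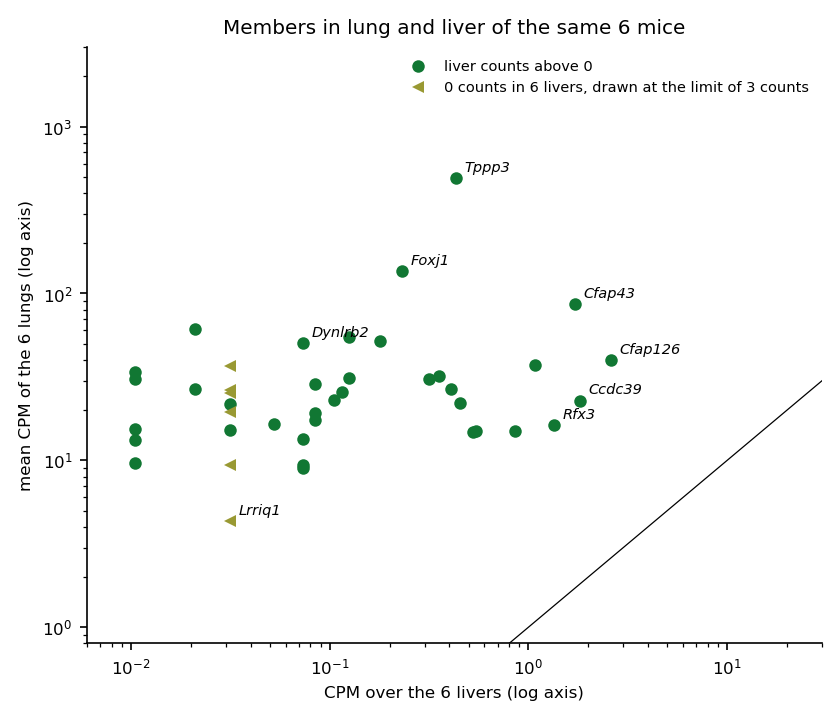
Each point is 1 member, with its CPM over the 6 livers (x) against its mean CPM in the 6 lungs of the same mice (y), both on log axes and each scaled within its tissue. All points lie above the line of equality, and triangles are members with 0 liver counts drawn at the limit of 3 counts.

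Within the liver 6 members passed the filter on low counts and 36 did not, of which 5 had 0 counts in all 9 livers. Rfx2, Rfx3, Cfap43, Cfap126, Rsph9 and Ccdc39 were tested, and edgeR called 0 at an adjusted p under 0.05 and 0 at an unadjusted p under 0.05, against 7.55% of all 13195 genes at that unadjusted p. The liver of CS02 stood apart, at 344 to 432 times counting noise from the other CS livers, which lay 53.7 to 124 times from each other. DESeq2, which tested 37 members, called 0, with Ccdc39 at an unadjusted p under 0.05 (5.63% of all genes). Without the filter edgeR also tested 37 members and called 0, with 6 at an unadjusted p under 0.05 (Ccdc39, Dnah11, Spag16, Spag17, Spef2 and Tekt1) and 6.58% of all genes. Ccdc39 was at 0.552, 1.69, 0.813 and 1.09 CPM in the livers of CS01, CS02, CS04 and CS09 and at 3.63, 1.14, 3.21, 1.18 and 1.53 CPM in those of PS04, PS05, PS09, PS11 and PS15, with a log2 fold change of 1.04 (SE 0.49) and an edgeR adjusted p of 0.682. Rfx3 was at 1.31 ± 0.330 CPM (SD, n = 4) in CS and 1.35 ± 0.481 CPM (SD, n = 5) in PS livers, with a log2 fold change of 0.05 (SE 0.38). Rfx2 had a log2 fold change of 0.17 (SE 0.50), Cfap126 of 0.23 (SE 0.47), Rsph9 of -0.34 (SE 0.85) and Cfap43 of -0.91 (SE 0.62). The highest count of any member in any liver was 87. These errors cover counting error and the spread between mice together, which were not separated.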

How the data were processed

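RNA was extracted from frozen lung and liver, poly(A)-selected and made into libraries with a kit that does not mark strand. The authors aligned reads with HISAT2 2.0.5 and counted them per gene with featureCounts 1.5.0-p3, per the labels, on build mm10. The deposited counts are raw read counts per gene. The deposited FPKM values are counts divided by gene length and a library factor by the authors. Settings for reads that match several genes were not given in the sources used here.

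From the counts, edgeR 4.0.16 (R 4.3.3) was used with TMM normalization, its default low-count filter and robust quasi-likelihood tests, once per tissue for diet, and over the 6 mice with both organs for lung against liver with mouse as a block. Mice pair the tissues, as the labels give the same mouse. P-values were adjusted by Benjamini-Hochberg over all genes tested. Each library came from its own mouse by the labels, and no pair of a group came near counting noise (a mean chi-square of 1 per gene over genes with at least 100 reads in the pair). Groups came from the labels, and every sample column was used. The fits were tested on simulated data with known changes.

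The members and all lists were chosen with earlier results of these data known. All 42 members are named by role. Of the other lists, those called at an adjusted p under 0.05 without overlap between the diets are named, at most 5 per list, and marker genes by summed level with the defining ones by name. Gmnc, Tfdp1, Scgb1a1 and the marker genes named without an edgeR call over all 6 lungs were chosen after their values were seen. The alternatives changed the scaling (size factors of DESeq2 1.42.0), the test (its Wald test, or limma-trend of limma 3.58.1 on FPKM in log2 with 1 or 0.1 added), the filter (none, or a minimum of 10 counts per library) or the model (replicate number as a block), took out trends with gene length or with GC content library by library, or dropped 1 library. Library ratios used CPM + 0.05. Copies were sought at 95% identity over 200 bases among GENCODE M21 transcripts. Replicate SDs cover these mice, and intervals were not computed.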

Additional observations from a re-analysis of the deposited data

Results flagged for a closer look

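Of 14 groups of livers looked at (the summed members and the 6 tested members in each diet), 2 held a library far from the others of its group, and chance flags about 1 in 20 groups. The summed level of the 42 members in the liver of CS02 was 27.4 CPM, against 7.34, 9.98 and 9.28 CPM in the livers of CS01, CS04 and CS09. Cfap126 in the liver of CS02 was 4.52 CPM, against 1.44, 1.45 and 1.22 CPM in the other 3 CS livers. Without the liver of CS02, Cfap126 and Ccdc39 had an unadjusted p under 0.05 by edgeR, and 0 members were called at an adjusted p under 0.05. In that fit 852 of all 13368 genes were lower and 1039 higher at an unadjusted p under 0.05.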

How the results depend on the processing

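Counts of called genes moved with the test and with single libraries, and their causes were not tested. Members called lower in the lung numbered 9 under DESeq2 and 0 to 9 with 1 library left out, and members called higher numbered 1 under DESeq2, without a filter and with the gene length trend removed. Of all genes, DESeq2 called 8.61% lower and 8.99% higher, and edgeR without a filter called 1086 lower and 1220 higher of 28739. With the length trend removed 6.53% of all genes were called higher. With 1 library left out 0 to 1309 genes were called lower and 0 to 1752 higher, of 17058 to 17227 tested. Other motile cilia genes called lower numbered 2 with DESeq2's size factors, 11 under DESeq2, 7 without a filter, 2 with at least 10 counts in every library, 3 with limma-trend on log2(FPKM + 1), 4 with the length trend removed, 2 with the GC trend removed and 0 to 7 with 1 library left out, and 0 to 1 were called higher with 1 left out. All genes called lower numbered 768 of 16717 with DESeq2's size factors and 702 of 15046 with at least 10 counts in every library. They numbered 791 of 16717 with the length trend removed and 589 of 16702 with the GC trend removed. Genes of intraflagellar transport and the BBSome called lower numbered 10 under DESeq2, 9 without a filter, 2 with either form of limma-trend, 2 with the GC trend removed and 0 to 8 with 1 library left out, and called higher 0 to 2. Of all 16717 genes limma-trend called 590 lower with 1 added to the FPKM and 557 with 0.1 added. With at least 10 counts in every library only 2 members could be compared between lung and liver, and 2 were higher in lung.

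Replicate numbers did not pair the lungs, since the deviations of same-numbered lungs correlated at 0.05, -0.01 and 0.10 across genes. With the replicate block, 8 members were called lower, 4 other motile cilia genes lower and 1 higher, and 8 genes of intraflagellar transport and the BBSome lower and 0 higher, and of all genes 4.82% were called lower and 4.89% higher.

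The median log2 fold change of the members stayed below 0 under all 15 alternatives, from -0.61 without PS15 to -0.05 without PS09. Of 629 values of single members under an alternative 619 moved by less than 1 SD between replicates, and no called member changed sign. No member was called at an adjusted p under 0.05 in the liver under any alternative run, of which edgeR without a filter had 6 members at an unadjusted p under 0.05. The members with the fewest reads rest on the least depth, such as Lrriq1 with 5, 3 and 17 reads in the PS lungs.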
